A study of Mus musculus with 10 samples.

Results

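AP-1 is a transcription factor built from a FOS protein and a JUN protein, and its 7 genes, Fos, Fosb, Fosl1, Fosl2, Jun, Junb and Jund, were followed here in the mouse hippocampus. The 7 were chosen by family name from 19938 genes measured with exactly 1 annotated gene symbol, and the brightest probe set of a gene by mean over the 10 arrays was to be taken. Each member had 1 probe set, so that step picked nothing. The family was taken up with earlier results of these arrays known, lower Fos in Dp1Rhr among them, so the differences below describe these mice and support nothing beyond them.

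Gene expression was measured on 1 array per mouse in 5 Dp1Rhr mice and 5 control mice, all males aged 16 weeks and labelled as C57BL/6N. The methods of the study instead describe backcrossing of its duplication lines towards C57BL/6J. Dp1Rhr mice carry a tandem duplication of chromosome 16 from Cbr1 to Fam3b, so that these genes are at 3 copies in every cell. The controls were littermates without it, labelled as the wild type of the cross of Dp1Rhr with the Dp5Yah duplication, and carried 2 copies. RNA came from both whole hippocampi of a mouse, so all cell types were measured together. No member of the family lies on chromosome 16. The values are log2 signals after RMA, a method that brings the arrays to near-equal distributions, and the array medians lay between 6.77 and 6.83. Control replicates 2 and 3 stood apart from the other 8 arrays in markers of the choroid plexus, the epithelium beside the hippocampus that makes cerebrospinal fluid, so the differences of the 7 members are given with and without them.

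FOS proteins bind DNA only after pairing with a JUN protein, whereas JUN proteins can also pair with each other. In neurons, Fos, Fosb and Junb are immediate early genes: their transcripts are low at rest and rise within minutes of synaptic activity, when calcium and ERK signals reach CREB and serum response factor at their promoters, and then decay quickly. Fosl2 follows more slowly. Jun is induced by activity and by stress through the JNK kinases, and Jund is present at a steady level. The pairs formed bind a short DNA element, the TPA response element, at genes for neuropeptides, synaptic proteins and proteases.

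Promoter sequences of 6 members were matched in RefSeq (GRCm38.p6), and Fosl1 was not matched. Both strands of the 250 bases before each start were searched for 5 motifs: TGACG, the core of the cyclic AMP response element (CRE) bound by CREB; TGACGTCA, the full CRE; TGACTCA, the TPA response element (TRE); TGACATCA, the TRE variant; and the CArG box bound by serum response factor. The stretches with a match are printed 5′ to 3′ on the strand of the gene, with the match in capitals, since CREB and AP-1 itself are known to act on this family through such elements. They lie at chr12:85473740-85473889 on the plus strand for Fos, at chr8:84978749-84978898 on the minus strand for Junb, at chr4:95052223-95052372 on the minus strand for Jun and at chr7:19310089-19310118 on the minus strand for Fosb. For Fosb only 30 bases are shown because its annotated gene extends up to chr7:19310118, upstream of the start used.
Fos: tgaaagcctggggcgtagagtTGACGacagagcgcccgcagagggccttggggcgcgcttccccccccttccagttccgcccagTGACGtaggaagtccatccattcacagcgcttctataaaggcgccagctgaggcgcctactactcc
Fosb: atggagttgcgggTGACGcaagcgcggggg
Junb: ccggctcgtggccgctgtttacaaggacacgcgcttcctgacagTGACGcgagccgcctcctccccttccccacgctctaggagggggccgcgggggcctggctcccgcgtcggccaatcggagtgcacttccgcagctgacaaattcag
Jun: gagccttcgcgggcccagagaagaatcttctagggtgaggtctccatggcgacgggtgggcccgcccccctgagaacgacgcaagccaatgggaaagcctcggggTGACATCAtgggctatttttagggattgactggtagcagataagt

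The CRE core stood 129 and 66 bases before the start of Fos, 60 bases before that of Fosb and 106 bases before that of Junb. Thus 3 of the 6 members held it, beside 17.8% of 32851 promoter windows of all genes. The Fosb match lies within the annotated gene, which extends upstream of the start used. The TRE variant stood 45 bases before the start of Jun and in 2.93% of all windows. No member held the full CRE, the TRE or the CArG box in this window, and 1.55%, 4.46% and 1.47% of all windows did. Each full CRE also counts as a core. A match is a description of letters and does not show binding.

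All 7 members had a mean below that of control in Dp1Rhr, and 1 of them, Junb, passed limma's test at an adjusted p of 0.05. Over all genes 0.802% passed in either direction and 0.176% passed as lower in Dp1Rhr. The largest difference was that of Fos, at 0.624-fold, and it did not pass. Fosb lay between Fos and Junb, Fosl2 was nearer to control than Junb, and Jun, Jund and Fosl1 stood within 0.10 log2 units of control. The median log2 difference of the family was -0.23, where that of all genes was -7.57e-05 and 50.1% of genes had a negative difference. In RNA from a whole tissue, fewer cells of a type and less RNA per cell cannot be told apart.

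**Figure D1:**
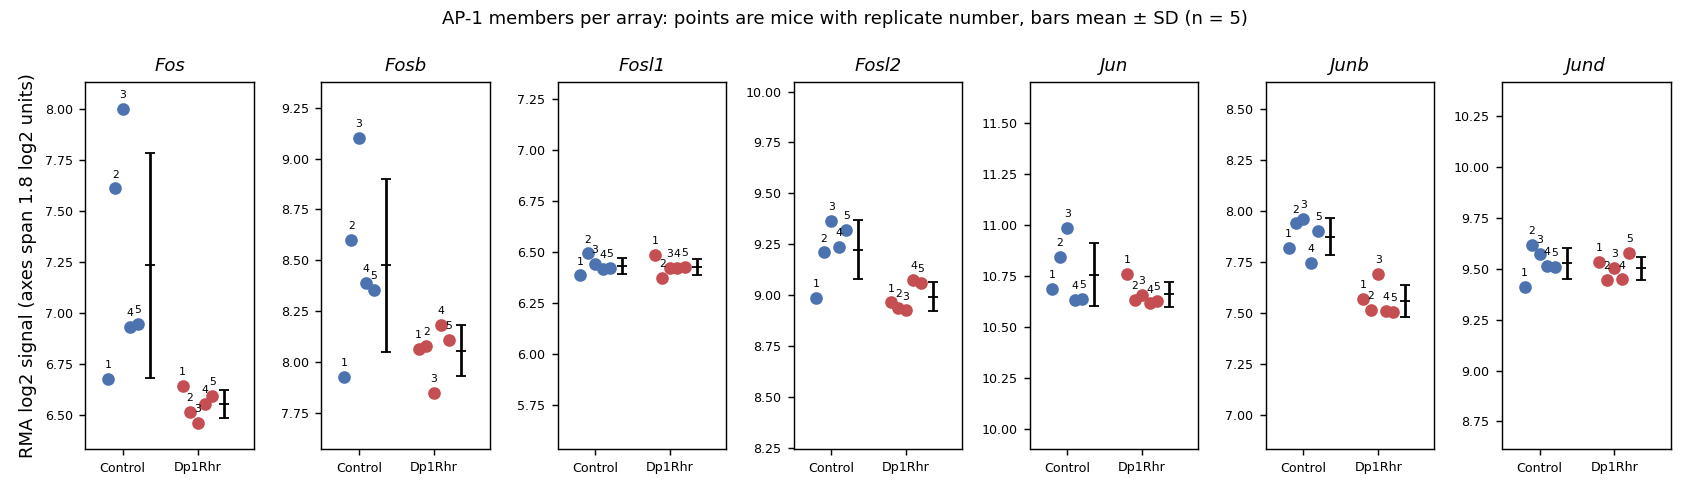
RMA log2 signal (y axis, each panel spanning 1.8 log2 units) of the 7 members in each array. Points are single mice numbered by replicate, blue for control and red for Dp1Rhr, and black bars give the mean ± SD of 5 mice. Control replicates 2 and 3 stand highest for Fos, at 7.61 and 8.003, and the 5 Junb values of each group do not overlap.

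Fos (probe set 10397346, chr12:85473890-85477274), the prototype of the FOS proteins and the usual marker of recently active neurons, had log2 signals of 6.68, 7.61, 8.003, 6.93 and 6.94 in control replicates 1 to 5. In Dp1Rhr replicates 1 to 5 it had 6.64, 6.51, 6.46, 6.55 and 6.59. The groups did not overlap, but control replicate 1 lay only 0.035 above the highest Dp1Rhr array, control replicates 4 and 5 stood close together, and control replicates 2 and 3 stood far above the rest. The log2 difference was -0.68 ± 0.21 (SE, n = 5 per group; 95% confidence interval -1.13 to -0.23; limma adjusted p = 0.138). Without control replicates 2 and 3 it was -0.30 ± 0.06 (SE; 3 control and 5 Dp1Rhr mice; limma adjusted p = 0.128), which is 43.8% of the value over all 10 arrays, and the groups still did not overlap.

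Fosb (probe set 10560481, chr7:19302696-19310118) encodes FOSB and, by alternative splicing, the stable short form ΔFOSB that builds up with repeated activity. The file gives 1 value for the gene, so the splice forms were not resolved. Signals were 7.93, 8.60, 9.10, 8.39 and 8.36 in control replicates 1 to 5 and 8.07, 8.08, 7.85, 8.18 and 8.11 in the Dp1Rhr replicates. Control replicate 1 was below 4 of the 5 Dp1Rhr arrays, and the other controls were above all of them. The log2 difference of -0.42 ± 0.17 (SE, n = 5 per group; 95% confidence interval -0.78 to -0.06) did not pass (limma adjusted p = 0.253). It was -0.17 ± 0.11 (SE; limma adjusted p = 0.551) without control replicates 2 and 3.

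Fosl2 (probe set 10520862, chr5:32136472-32157840) encodes FRA2, a FOS protein without the strong activation domain of FOS. Its control values were 8.99, 9.21, 9.37, 9.24 and 9.32, and its Dp1Rhr values were 8.96, 8.94, 8.93, 9.08 and 9.06. As with Fosb, control replicate 1 fell inside the range of the Dp1Rhr arrays, and the other 4 controls lay above that range. The log2 difference was -0.23 ± 0.06 (SE, n = 5 per group; 95% confidence interval -0.37 to -0.09; limma adjusted p = 0.111). Without control replicate 1 it was -0.29 and passed (limma adjusted p = 0.0328), and without control replicates 2 and 3 it was -0.19 ± 0.07 (SE; limma adjusted p = 0.288).

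Fosl1 (probe set 10460585, chr19:5447698-5455938), which encodes FRA1, known mainly from epithelial and tumour cells, was the dimmest member. Its mean signal stood at the 34.4th percentile of all genes, whereas the other 6 members stood at percentile 41.1 or above. Control values of 6.38, 6.49, 6.44, 6.42 and 6.42 overlapped Dp1Rhr values of 6.49, 6.37, 6.42, 6.42 and 6.43 throughout. The log2 difference of -0.01 ± 0.03 (SE, n = 5 per group) had a 95% confidence interval from -0.07 to 0.06, and it was 0.02 without control replicates 2 and 3.

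Junb (probe set 10580282, chr8:84976909-84978748), a JUN protein induced with Fos that activates less strongly than JUN, was lower in Dp1Rhr. It had signals of 7.82, 7.94, 7.96, 7.75 and 7.90 in control replicates 1 to 5 and of 7.57, 7.51, 7.69, 7.51 and 7.50 in Dp1Rhr replicates 1 to 5. Every Dp1Rhr array was below every control array, with a gap of 0.054 between Dp1Rhr replicate 3 and control replicate 4. Junb fell to 0.803-fold of control (log2 difference -0.32 ± 0.05 SE, n = 5 per group; 95% confidence interval -0.43 to -0.21; limma adjusted p = 0.0269). The call was lost in 6 of the 10 fits that left out 1 array, namely without control replicate 2, 3 or 5 (adjusted p = 0.0681, 0.0501 and 0.0673) and without Dp1Rhr replicate 1, 2 or 4 (adjusted p = 0.0851, 0.0909 and 0.0764), with the difference between -0.35 and -0.30 throughout. Without control replicates 2 and 3 together the difference was -0.27 ± 0.05 (SE; limma adjusted p = 0.109), 83.9% of the value over all arrays, and the groups still did not overlap.

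Jun (probe set 10514466, chr4:95049036-95052222), the partner that pairs with every FOS protein and the main substrate of JNK, had control values of 10.69, 10.84, 10.99, 10.63 and 10.64. Its Dp1Rhr values were 10.76, 10.63, 10.66, 10.62 and 10.63. Control replicates 2 and 3 were again the highest arrays, and the other 3 controls lay inside the range of the Dp1Rhr arrays. The log2 difference was -0.10 ± 0.07 (SE, n = 5 per group; 95% confidence interval -0.24 to 0.05; limma adjusted p = 0.546), and it was 0.01 without control replicates 2 and 3.

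Jund (probe set 10572456, chr8:70697739-70700616), which encodes the constitutive JUN protein, had control values of 9.41, 9.62, 9.57, 9.52 and 9.51 and Dp1Rhr values of 9.54, 9.45, 9.50, 9.45 and 9.58. The groups overlapped, and control replicate 1 was the lowest of the 10 arrays. The log2 difference of -0.02 ± 0.04 (SE, n = 5 per group) had a 95% confidence interval from -0.12 to 0.07, which holds changes of either sign, and it was 0.02 without control replicates 2 and 3.

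Groups that did not overlap, all Dp1Rhr arrays on 1 side of all control arrays, were seen for 2 of the 7 members, Fos and Junb. Over all genes 3.52% had such groups in either direction and 1.7% with Dp1Rhr lower. FCROS, the rank method of the study, called 4 of the 7 members, Fos, Fosb, Fosl2 and Junb, and 5.39% of all genes. FCROS sets its calls by the tails of averaged fold change ranks and does not use the spread within a group.

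The spread among control mice was widest for Fos, whose highest control array was 2.51-fold the lowest, and for Fosb, at 2.25-fold. The SD of Fos was 0.55 in control and 0.07 in Dp1Rhr (n = 5 each), a ratio of 7.94, and 0.196% of all genes had a ratio as large. The Dp1Rhr values of Fos, 6.46 to 6.64, lay below the array medians of 6.77 to 6.83, and its mean signal stood at percentile 41.1. Whether low signal narrowed the spread of Fos in Dp1Rhr was not tested. For Fosb the SDs were 0.43 and 0.13, with a ratio of 3.39 that 3.06% of genes reached. Both genes varied several times more among control mice than among Dp1Rhr mice, where the median ratio over all genes was 1.09, with quartiles of 0.749 and 1.60.

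Jun and Fosl2 were also more variable in control, with ratios of 2.62 and 2.09, which 6.96% and 13.2% of genes reached. For Jund the ratio was 1.36, for Junb 1.14 and for Fosl1 0.987, all between the quartiles over all genes. Junb was thus the member whose groups stood apart with a similar SD in each, 0.09 in control and 0.08 in Dp1Rhr. Without control replicates 2 and 3 the ratio of Fos was 2.15, that of Fosb 2.04 and that of Jun 0.495, whereas that of Fosl2 was 2.48.

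**Figure D2:**
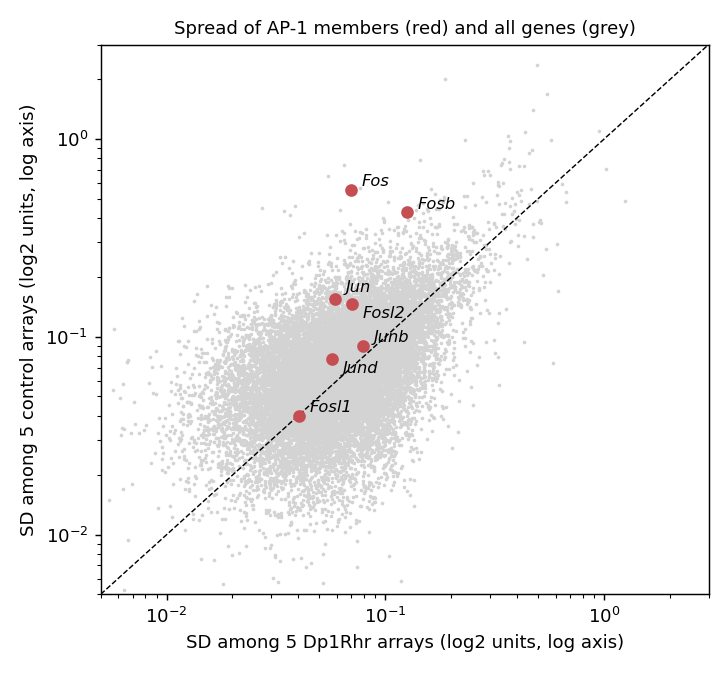
SD of log2 signal among the 5 control arrays (y axis) against that among the 5 Dp1Rhr arrays (x axis), both on log axes, for all genes (grey) and the 7 members (red). The dashed line marks equal SDs, and Fos, at 0.55 against 0.07, lies farthest above it of the 7.

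Single mice carried much of this pattern. Control replicate 3 was the highest array for 5 of the 7 members and control replicate 2 for the other 2, Fosl1 and Jund. Control replicate 1 was below its group mean for all 7 members. Among the Dp1Rhr mice, replicate 3 was the lowest array of all for Fos, Fosb and Fosl2 and the highest Dp1Rhr array for Junb, and each Dp1Rhr mouse was above its group mean for at least 1 member.

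**Figure D3:**
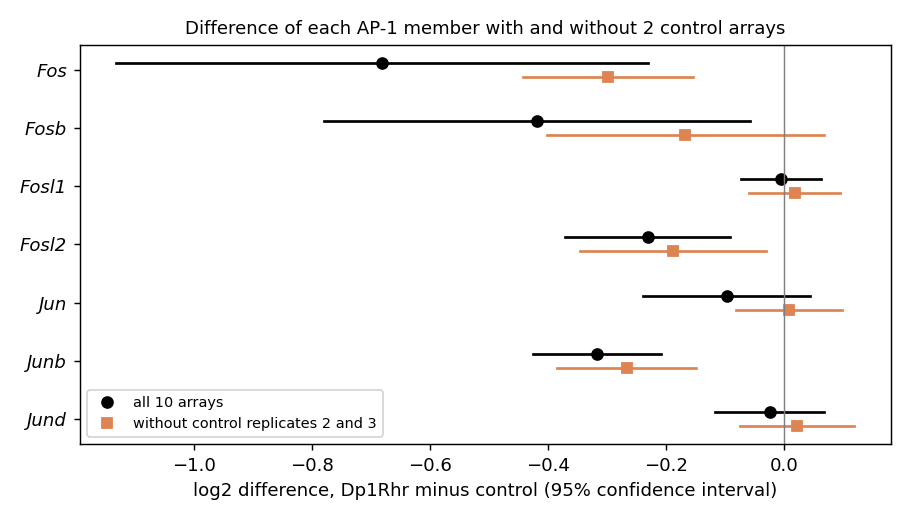
Log2 difference between Dp1Rhr and control (x axis) of each member (y axis) with its 95% confidence interval, over all 10 arrays (black circles) and without control replicates 2 and 3 (orange squares). Fos moves from -0.68 to -0.30 and Junb from -0.32 to -0.27, and Jun, Jund and Fosl1 lie on the other side of 0 without these arrays.

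After each group's mean was removed, the Pearson correlation over the 10 arrays was above 0 for all 21 pairs of members, with a median of 0.57. The same was not computed over pairs of all genes, so the values are not shown to be particular to the family. These correlations are descriptions, and a normalization shared by the arrays could add to them, which was not tested. The highest were Fos with Fosb, at 0.92, and Fos with Jun, at 0.90. Over the 8 arrays without control replicates 2 and 3, 16 of the 21 were above 0 and the median was 0.26. Fos with Fosb stood at 0.87 there, Fosb with Fosl2 at 0.89 and Fos with Fosl2 at 0.83. Of the JUN genes, Jund was at 0.71 with Fos there, whereas Jun was at 0.0042 and Junb at -0.20.

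The 8 genes outside the family whose within-group pattern was most like that of Fos, of 11957 above the 40th percentile of mean signal, were Prmt5 (r = 0.97 over 10 arrays), Nr4a1 (0.96), Abi1 (0.96), Acbd3 (0.96), Drosha (0.96), Stambpl1 (0.96), Gpr45 (0.95) and Slain2 (0.95). Nr4a1 is itself an immediate early gene, an orphan nuclear receptor. Its log2 difference was -0.65 ± 0.18 (SE, n = 5 per group; limma adjusted p = 0.114), near that of Fos, and it was -0.33 without control replicates 2 and 3, while the other 7 genes lay between -0.10 and 0.04. Over the 8 arrays without control replicates 2 and 3, r was 0.69 for Nr4a1, 0.44 for Stambpl1, the lowest of the 8, and 0.87 for Slain2, the highest.

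Control replicates 2 and 3, the mice highest in the family, were also the lowest in choroid plexus markers. Ttr, the transthyretin gene of this epithelium, was at 9.53 and 9.83 in them and between 13.2 and 13.6 in the other 8 arrays. Folr1, a folate receptor of the same cells, was at 7.09 and 7.07 in them. Over the 13 measured of 15 listed markers, the mean ranged from 6.86 to 8.99 in control and from 8.50 to 9.42 in Dp1Rhr, with 0 of 13 past the threshold and a median log2 difference of 0.87, which was 0.29 without control replicates 2 and 3. With a score of these markers as a covariate, the log2 difference of Fos was -0.26 and that of Junb -0.24, with limma adjusted p = 0.548 and 0.111. The part of tissue sampling in the values of the family was not tested.

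**Figure D4:**
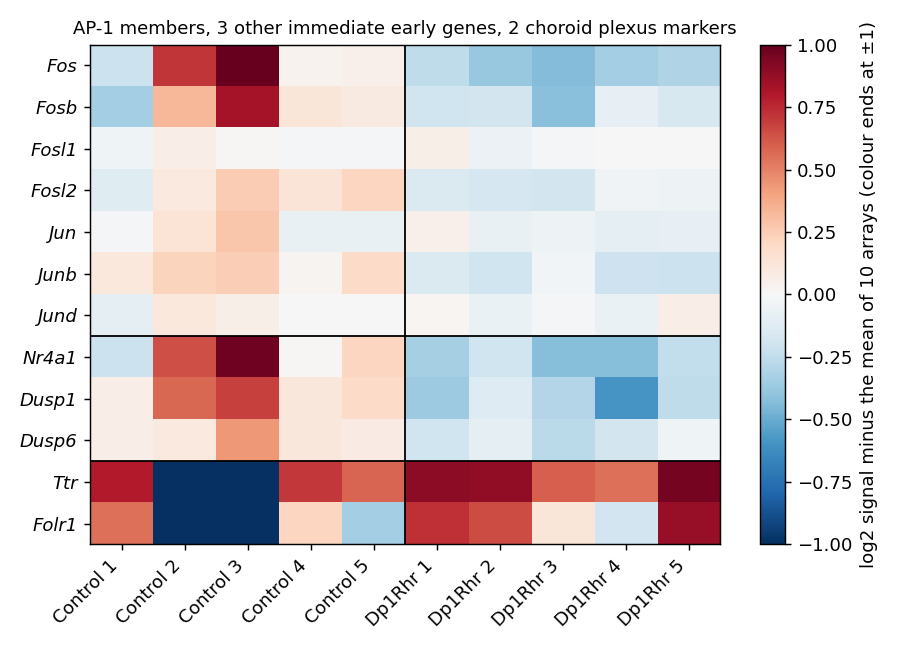
Log2 signal minus the mean of the 10 arrays (colour, ending at ±1) for the 7 members, 3 other immediate early genes and 2 choroid plexus markers (rows) in each array (columns). Control replicates 2 and 3 are at once above the mean for Fos, Fosb and Nr4a1 and below it for Ttr and Folr1.

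Markers of hippocampal neurons were present in every mouse, with list means from 9.94 to 10.02 in control and 9.96 to 9.997 in Dp1Rhr, a median log2 difference of -0.04 and 0 of 10 markers past the threshold. Medians were 0.07 for 6 astrocyte markers, 0.07 for 6 microglia markers, 0.03 for 6 endothelial and mural markers, 0.18 for 4 oligodendrocyte markers, 0.03 for 6 meningeal markers, 0.27 for 4 ependymal markers, 0.29 for 6 habenula and thalamus markers and 0.07 for 4 striatal markers, none of which passed. The habenula and thalamus markers ran from -0.86, for Tcf7l2, to 1.10, with 1 of 6 below 0. Among them, Gpr151 was at 7.24, 6.83 and 7.47 in Dp1Rhr replicates 2, 3 and 4. It was at 6.14 and 6.26 in Dp1Rhr replicates 1 and 5 and between 6.12 and 6.32 in control. Of 2 blood markers, 1 passed, Alas2, at 0.67 ± 0.11 (SE, n = 5 per group; limma adjusted p = 0.0304). Its call was lost without control replicate 2 or 5 (limma adjusted p = 0.0753 and 0.0727) and without Dp1Rhr replicate 1, 2 or 4 (0.0952, 0.0909 and 0.0801). Without control replicates 2 and 3 together the call of Alas2 was also lost (limma adjusted p = 0.0922). The other blood marker, Slc4a1, had 0.01 (limma adjusted p = 0.953). The part of all these markers in the results of the family was not tested.

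Other bZIP proteins pair with the family or compete for its sites. Of 18 listed, 17 were measured, 0 rose and 0 fell. A difference below 0 was seen for 14, or 82.4%, where 50.1% of all genes had one. The median of -0.04 was -0.00141 without control replicates 2 and 3 and 0.00935 with the choroid plexus covariate. Nfe2l2, which encodes NRF2, the activator of antioxidant genes, had the highest difference, 0.41 ± 0.10 (SE, n = 5 per group; limma adjusted p = 0.0776), and Mafg, a small MAF partner of NRF2, had -0.10. Atf3, a stress-induced partner of JUN, stood at -0.06, and Jdp2, a repressor that pairs with JUN, at -0.08.

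Kinases, ubiquitin ligases and repressors that act on FOS and JUN proteins gave 0 rises and 0 falls among 18 measured of 23, with a median of -0.03. Rps6ka3, which encodes RSK2, a kinase that stabilises FOS, had -0.18 ± 0.06 (SE, n = 5 per group; limma adjusted p = 0.165). Gsk3b, whose kinase marks JUN for degradation, had -0.07 (limma adjusted p = 0.213), with every Dp1Rhr array, 11.19 to 11.22, below every control array, 11.24 to 11.31. It was the 1 gene of the 18 with such groups, 5.56%, beside 1.7% over all genes. The JNK genes Mapk8, Mapk9 and Mapk10 stood at -0.05, 0.02 and -0.06.

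Inducers that act at FOS and JUN promoters, such as serum response factor, CREB and their coactivators, gave 0 rises and 0 falls among 19 measured of 21, with a median of -0.04. The coactivator genes Crebbp and Ep300, which encode the acetyltransferases CBP and p300, both had -0.16 (limma adjusted p = 0.0617 and 0.0760). They were among 5 inducers whose Dp1Rhr arrays all lay below the control arrays, 26.3% of the 19, beside 1.7% over all genes. Creb1, which is also among the bZIP genes above, had -0.06, and Srf had -0.09.

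Known targets of AP-1 gave 0 rises and 0 falls among 31 measured of 33, with a median of -0.01. Of the 31, 16 were below 0, or 51.6%, where 50.1% of all genes were. Tac1, the precursor of substance P, had the highest difference, 0.43 ± 0.15 (SE, n = 5 per group; limma adjusted p = 0.194), with overlapping groups. Gclm, a subunit of the enzyme that starts glutathione synthesis, had 0.12 (limma adjusted p = 0.184), and its Dp1Rhr arrays, 10.42 to 10.55, all lay above its control arrays, 10.21 to 10.41. It was the 1 target of 31 with such groups, beside 363 of all 19938 genes. The opioid precursor genes Penk and Pdyn had -0.04 and 0.14, and Cdk5, a kinase gene raised by ΔFOSB, had 0.01.

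Of 37 other immediate early genes, all measured, 33 had a difference below 0, where 50.1% of all genes did. The differences ran from -0.85 to 0.12 with a median of -0.14, and 1 gene fell and 0 rose. The median was -0.07 without control replicates 2 and 3 and -0.06 with the choroid plexus covariate. The gene that fell was Dusp1, the phosphatase that switches off MAP kinases, at -0.65 ± 0.12 (SE, n = 5 per group; limma adjusted p = 0.0434). Its control arrays ranged from 9.53 to 10.15 and its Dp1Rhr arrays from 8.88 to 9.34, and control replicates 2 and 3 were again the highest. Without these 2 arrays Dusp1 had -0.45 and did not pass (limma adjusted p = 0.104). Its call was also lost in 7 of the 10 fits that left out 1 array, namely control replicate 2, 3 or 5 (limma adjusted p = 0.0881, 0.0653 and 0.0806) or Dp1Rhr replicate 1, 2, 3 or 4 (0.131, 0.0932, 0.0523 and 0.111). Dusp6, the ERK phosphatase, had -0.32 ± 0.07 (SE; limma adjusted p = 0.0638), and 7 of the 37 genes, 18.9%, had all Dp1Rhr arrays below the control arrays, beside 1.7% over all genes. This list was drawn up with lower immediate early genes in these arrays already known, so its direction is not independent of that of Fos.

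**Figure D5:**
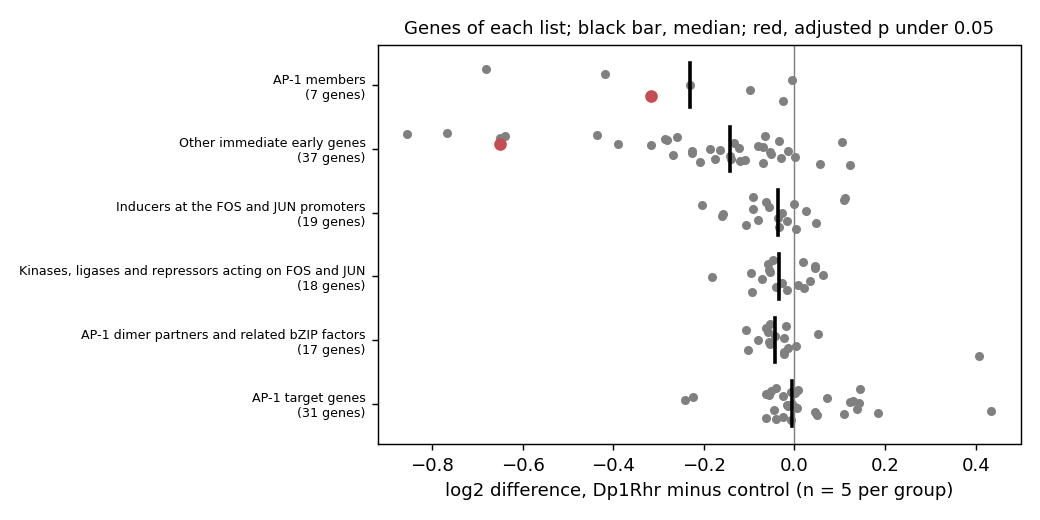
Log2 difference between Dp1Rhr and control (x axis) of each gene of the family and of 5 related lists (y axis). The black bar is the median and red marks an adjusted p under 0.05 by limma, which Junb and Dusp1 reached. The medians are -0.23 for the 7 members, -0.14 for the other immediate early genes and between -0.04 and -0.01 for the rest.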

How the data were processed

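Total RNA of both hippocampi of each mouse was hybridised to Affymetrix Mouse Gene 1.0 ST arrays. The authors processed the scans with RMA and deposited log2 values, and limma and mm10 are also named in the processing notes of the submitters. Which arrays were normalized together is not given in the sources used here. RMA makes the arrays alike, so a shift shared by every gene would be hidden. The number of arrays limits the precision. Labels call the samples biological replicates.

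Of 35556 probe sets, 21789 had 1 gene symbol in the platform annotation, 1621 had several and 12146 were not listed there. The brightest was kept for 999 genes with more than 1, which left 19938 genes. Coordinates came from RefSeq (GRCm38) by Entrez identifier.

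Differences between Dp1Rhr and control were fitted with limma 3.58.1 (R 4.3.3; lmFit, eBayes, two-sided, Benjamini-Hochberg over all genes, adjusted p 0.05), in which 160 genes passed, 35 of them lower. The study's FCROS was implemented anew as an alternative, with a trim of 0.25. The fit was checked on simulated data. Members, lists and alternatives were chosen with earlier results of these data known. Named genes were the 7 members, the genes of each list past the threshold and the 2 of smallest p, the 8 most like Fos, and Ttr and Folr1. Marker lists are given by counts and medians, and the habenula and thalamus list also by its range. Atf3, Jdp2, Creb1, Srf, Mapk8, Mapk9, Mapk10, Penk, Pdyn and Cdk5 were named after their values were seen, for their known roles. The choroid plexus score was the mean of z-scored markers. Alternatives also included a fit with a replicate block, fits without each array and without control replicates 2 and 3 together, other normalizations, probe set rules, a filter on genes below the 40th percentile, eBayes with trend and robust, and array weights.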

Additional observations from a re-analysis of the deposited data

Results flagged for a closer look

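Among 132 groups of 5 arrays, 8 held an array far from the other 4, and chance gives about 1 in 20. None was a member of the FOS or JUN families. Dusp6 was at 10.3 in control replicate 3, against 9.93 to 9.97 in the other controls. Gclm was at 10.2 in control replicate 5, below the other controls. In Dp1Rhr replicate 3 the astrocyte gene Gja1 was at 11.02 and Drosha at 9.80, both below the other Dp1Rhr arrays. The myelin gene Mobp was at 11.9 in Dp1Rhr replicate 5, below the others. The mean of the AP-1 target genes was highest at 8.24 in control replicate 3 and at 8.22 in Dp1Rhr replicate 4. The mean of the hippocampal neuron markers was lowest at 9.94 in control replicate 2.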

How the results depend on the processing

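With a replicate block, 4 genes passed, 0 of them lower, with 0 members, 0 other immediate early genes and Junb at -0.32 (limma adjusted p = 0.0737). Same-numbered arrays of the groups correlated at -0.34 to 0.12 in their deviations, and 1 of 5 was closest to its own number. Deviations over all genes follow the main pattern of each array, so these values cannot exclude a pairing by number. Without control replicates 2 and 3 together, 5 genes passed (0 lower, 0 members, 0 other immediate early genes), the medians of the bZIP partners and targets were -0.00141 and 0.0151, Junb had -0.27 without a call, and Fosl1 (0.0187), Jun (0.00837) and Jund (0.0224) turned sign. With the choroid plexus score, 7 genes passed (1 lower, 0 members, 0 other immediate early genes), Junb had -0.24 without a call, Fosl1 (0.0236), Jun (0.00909) and Jund (0.0212) turned sign, and the bZIP median was 0.00935. Array weights gave 280 genes, 67 lower, Fosl1 at 0.00083, 1 inducer and 2 other immediate early genes. Trend and robust gave 1 inducer and 2 other immediate early genes, as did, for the latter, a second quantile normalization and leaving out dim genes, in which Fosl1 was not tested. Median centring gave 17 lower genes and every probe set on its own 21. FCROS called 1075 genes, 397 lower, 4 members including Fos (-0.68), Fosb (-0.42) and Fosl2 (-0.23), 1 bZIP partner, 1 kinase or ligase, 3 inducers, 3 targets, 16 other immediate early genes and 11 choroid plexus markers. The cause of these changes was not tested.

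Leaving out 1 array gave 5 to 284 genes, 0 to 67 lower, 0 to 2 members, 0 to 1 bZIP partner, 0 to 2 inducers and 0 to 2 other immediate early genes. Fos ranged from -0.82 to -0.49, Fosb from -0.55 to -0.26, Fosl1 from -0.0204 to 0.0103, Fosl2 from -0.29 to -0.20, Jun from -0.13 to -0.04, Junb from -0.35 to -0.30 and Jund from -0.05 to -0.0012. Rescaling moved the median of all genes by 0.0026 and 0.00069. Fosl1, the dimmest member, is limited by signal.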
